A study of Mus musculus with 12 samples.

Results

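The interferon response genes described here are Ifit1, Ifit2, Ifit3, Rsad2, Ifih1, Stat2, Irf1, Irf7 and Isg15, 9 mouse genes. They were named by symbol with earlier results of these data known. A gene was measured where an array row named that gene alone, and where several rows did so the row with the highest mean over the arrays was used. By this rule 8 of the 9 genes were measured, of 19937 genes in all. The row of Isg15, which encodes a ubiquitin-like protein that is attached to other proteins during the interferon response, also names Gm9706, so no value is given for it. Irf1 had 2 rows, and the brighter one was used.

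RNA from mouse liver cells and liver organoids (small epithelial structures grown in culture) of the C57Bl6 strain was measured on 12 arrays, 3 libraries in each of 4 groups. The first group was labelled as uninduced YFP-positive hepatocytes, obtained by FACS. The second was wild-type organoids, cultured for 2 weeks. The other groups came from livers in which Yap, a transcriptional co-activator that the Hippo pathway holds in check, had been switched on for 3 weeks in the animal. In the Yap-off organoids it was then off for 2 weeks of culture without doxycycline (dox), and in the Yap-on organoids it stayed on for those 2 weeks with dox, so both groups shared the earlier period of Yap activity. The labels name neither the Yap construct nor the promoter that drives it, and do not say whether the libraries of a group came from separate animals or cultures. All p-values therefore rest on the variation among these libraries alone, and part of it may be technical.

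Interferons are cytokines that cells release on sensing viral nucleic acid. RNA sensors such as the protein of Ifih1 (MDA5) lead to the production of type I interferon. Its receptor signals through the kinases JAK1 and TYK2 to a complex that holds STAT2 and IRF9 and binds the interferon-stimulated response element (ISRE) of target genes such as the Ifit family and Rsad2. Interferon-gamma acts on genes through the gamma-activated site (GAS), as in the Irf1 promoter, and Irf7 is itself induced and then amplifies interferon production. In the liver, resident macrophages and endothelial cells are prominent responders beside the hepatocytes.

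The promoters of the 9 genes were searched for the cores of these elements. The matched windows are printed because these are the elements through which interferon is known to act on such genes. The ISRE core, GAAA, then 2 bases of any kind, then GAAA, was searched on both strands, and the GAS core TTCNNNGAA equals its own reverse complement. Each RefSeq promoter spans 300 bases, 250 before and 50 after the gene's start, in build GRCm38.p6, and the 9 genes had 11 promoters. The ISRE core lay in the promoters of 6 of the 9 genes, Ifit1, Ifit3, Rsad2, Stat2, Isg15 and Ifih1, against 3.99% of 27025 genes. The GAS core lay in 2 of the 9, Ifit2 and Irf1, against 9.55% of genes. These letters were not in the window of Irf7, and the match of Ifih1 lay 32 bases after the start. Windows of Isg15, which has no value here, and of Ifih1 are not printed. The following windows of 30 bases run 5′ to 3′ on the strand of the gene, with the matched core in capitals (TTTC, 2 bases, TTTC is the ISRE core read from the other strand).
Ifit1, chr19:34640775-34640804, plus strand, 104 bases upstream: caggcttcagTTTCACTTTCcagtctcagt
Ifit1, chr19:34640794-34640823, plus strand, 85 bases upstream: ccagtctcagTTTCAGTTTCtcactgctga
Ifit3, chr19:34583363-34583392, plus strand, 156 bases upstream: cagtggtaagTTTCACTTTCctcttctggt
Ifit3, chr19:34583397-34583426, plus strand, 122 bases upstream: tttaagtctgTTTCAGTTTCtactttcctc
Rsad2, chr12:26456553-26456582, minus strand, 120 bases upstream: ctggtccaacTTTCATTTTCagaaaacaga
Stat2, chr10:128270266-128270295, plus strand, 222 bases upstream: cgcaccctggTTTCAGTTTCctttccctag
Ifit2, chr19:34550444-34550473, plus strand, 241 bases upstream: catgggagcTTCCTGGAAgaatggataaaa
Irf1, chr11:53769914-53769943, plus strand, 90 bases upstream: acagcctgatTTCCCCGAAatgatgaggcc
The 3 Ifit genes lie near one another on chromosome 19. Ifit1 and Ifit3 each hold a pair of ISRE cores with the same letters, TTTCACTTTC and TTTCAGTTTC, in the same order. A match describes the letters of a window and is not evidence that a factor binds there. The lack of a match in these 300 bases does not show that a gene lacks the element.

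All values are log2 intensities, made here from the deposited intensities, and a difference of 1 is a 2-fold change. In each array the median gene lay between 4.14 and 4.34, a mark below which a signal is dim. No detection calls were used. Within a group the libraries were not alike. Over all genes the library labelled hepatocyte 2 correlated at 0.951 with wild-type organoid 3 and at 0.936 with wild-type organoid 1, but at 0.822 and 0.826 with the other hepatocyte libraries. Wild-type organoid 2 correlated at 0.953 and 0.955 with hepatocytes 1 and 3. The Yap-off libraries correlated among themselves at 0.975 to 0.983 and the Yap-on libraries at 0.992 to 0.995. The labels of hepatocyte 2 and wild-type organoid 2 may therefore be exchanged. So may those of hepatocytes 1 and 3 with those of wild-type organoids 1 and 3. Neither was tested, and either would change what each mean and difference of these groups stands for. The labels were kept throughout, and calls of the 8 genes that involve these groups are given with and without hepatocyte 2 and wild-type organoid 2. Leaving these out keeps libraries that are alike within each label, and does not settle whether those labels are right.

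Hepatocyte markers (10) summed to 12903 to 21222 in the libraries labelled hepatocyte and 15379 to 20126 in wild-type organoids. Cyp2e1, set apart from this list after its values were seen, read 10.14 in hepatocyte 2 and 10.03 and 9.90 in wild-type organoids 1 and 3. It read 3.16 and 3.22 in hepatocytes 1 and 3 and 2.74 in wild-type organoid 2. Others such as Hnf4a went the other way, at 6.56 to 7.435 against 8.21 to 8.91. Krt19, a keratin of bile duct cells, read 10.21 and 9.82 in hepatocytes 1 and 3 and 9.28 in wild-type organoid 2. It read 4.95 in hepatocyte 2 and 4.28 and 4.92 in wild-type organoids 1 and 3. Summed biliary markers gave 2499, 2151 and 2475 in the former libraries and 158, 143 and 170 in the latter. Not every biliary marker separated these libraries. Muc1 read 3.04 to 3.43 in the former and 3.30 to 4.73 in the latter, and Cldn4 read 4.29 to 4.95 and 3.77 to 4.66. Markers of blood-derived and endothelial cells separated the same libraries. The summed intensity of 12 macrophage markers was 32014 in the library labelled hepatocyte 2, 17662 in wild-type organoid 1 and 27376 in wild-type organoid 3, with all 12 above the array's median gene in each. It was 387 and 527 in hepatocytes 1 and 3, 279 in wild-type organoid 2, 209 to 297 in the Yap-off and 210 to 227 in the Yap-on libraries. In the Yap-off and Yap-on libraries 5 and 2 of the 12 lay above the median gene. Cd68 read 4.54 to 5.85 in Yap-off and 6.35 to 6.84 in Yap-on libraries, and Lyz2 read 5.50 to 5.78 and 2.59 to 3.11. Adgre1 and Clec4f read 2.71 to 3.76, below the median gene. Summed endothelial markers gave 3271, 12747 and 7292 in the same 3 libraries and 91.3 to 123 in the other 9. Lymphocyte markers (8 measured of 9) reached 2088 and 1723 in wild-type organoids 1 and 3, 179 in hepatocyte 2 and 56.4 to 74.9 elsewhere. Neutrophil markers summed to 6717, 4940 and 5793 in those 3 libraries and to 49.6 to 98.9 in the rest. In those 3 libraries 4 of the 5 neutrophil markers lay above the median gene. S100a8 and S100a9 read 11.22 to 11.70 there, whereas Ly6g read 2.87 to 3.77, below the median gene. Dendritic cell markers summed to 231 and 224 in wild-type organoids 1 and 3 and to 39.1 to 49.3 in the other 10. In such bulk RNA, fewer cells of a type and less RNA per cell cannot be told apart.

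Of the libraries that held these markers, wild-type organoids 1 and 3 were high in the interferon response genes. Hepatocyte 2 was high in Ifit3, Rsad2, Irf1, Irf7 and Ifih1. In it Ifit1 (3.42) and Ifit2 (5.45) were below hepatocytes 1 and 3 (3.73 and 3.43, 5.98 and 5.49), and Stat2 (6.45) was little above them (6.02 and 6.33). All 8 lay above the array's median gene in wild-type organoids 1 and 3 and 7 of 8 did in hepatocyte 2, with medians over the 8 genes of 6.92, 7.73 and 5.95. In the other libraries 3 to 5 of the 8 lay above it, with medians of 3.32 to 4.52. The library labelled wild-type organoid 3 was the highest of the 12 for every measured gene except Irf7, which was highest in hepatocyte 2. The part of other cell types in these levels was not tested.

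**Figure D1:**
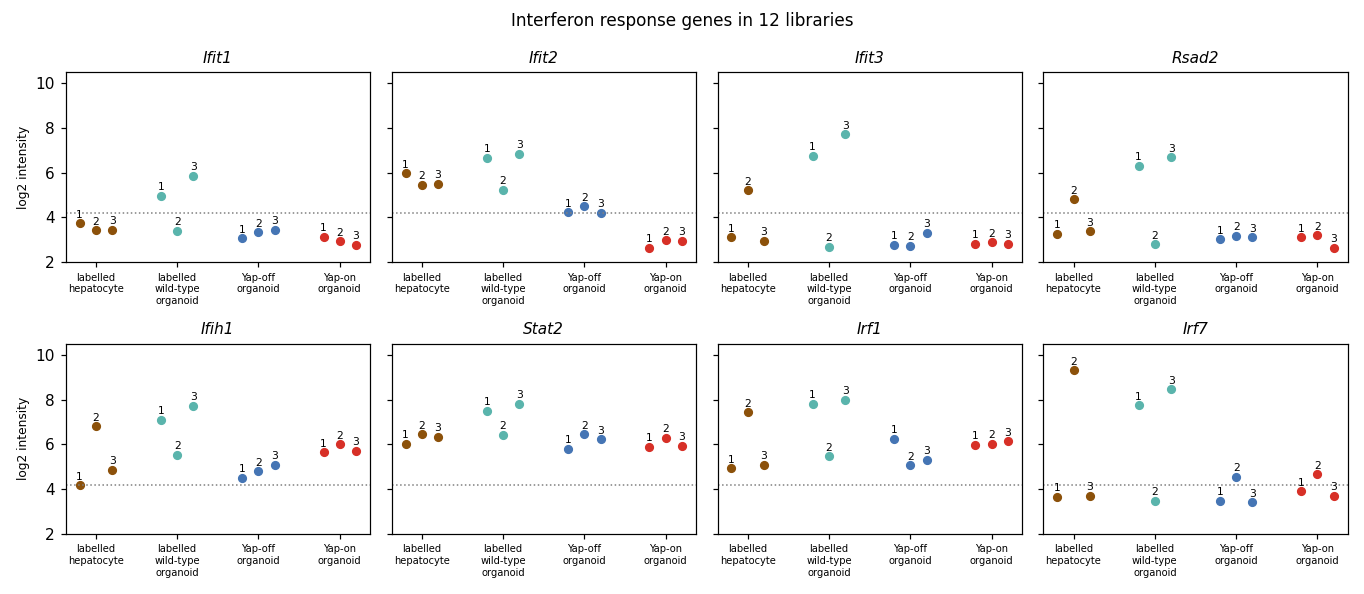
Log2 intensity (vertical axis) of the 8 measured interferon response genes in each library, with groups along the horizontal axis, replicate numbers beside the points and a dotted line at the median gene averaged over the arrays. Wild-type organoids 1 and 3 and the library labelled hepatocyte 2 stand above the rest for Ifit3, Rsad2, Irf1, Irf7 and Ifih1, whereas Ifit2 descends from 6.84 to 2.64 with the Yap-on libraries lowest.

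**Figure D2:**
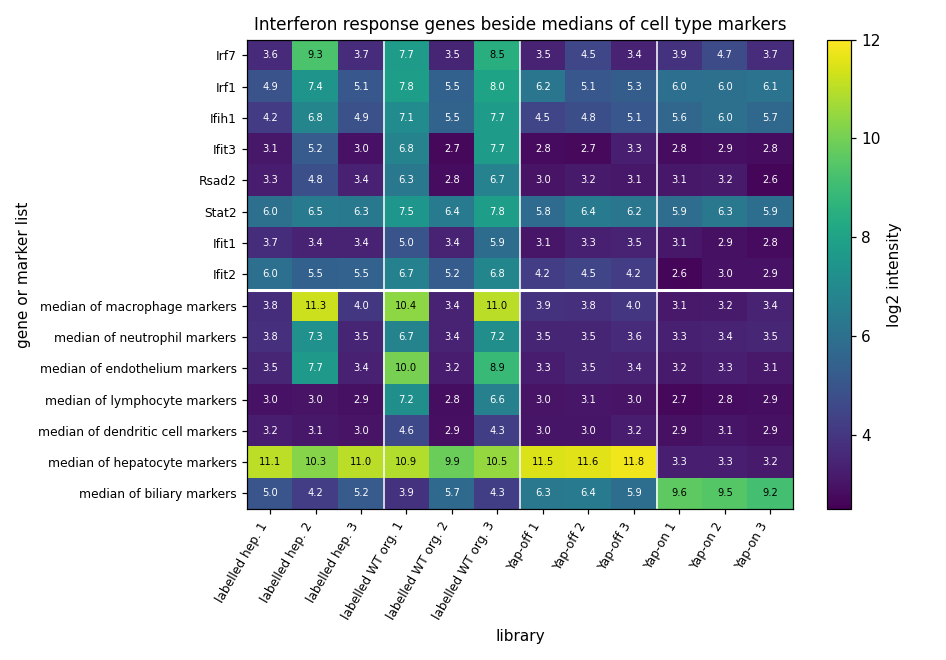
Log2 intensity by colour, with values printed, of the 8 genes (upper rows) and the median of 7 marker lists (lower rows) in the 12 libraries (columns). The bright columns of the interferon response genes are those with macrophage, neutrophil and endothelial markers, and in the Yap-on libraries hepatocyte markers are dim and biliary markers bright.

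The antiviral effectors come first. Ifit1, Ifit2 and Ifit3 encode tetratricopeptide repeat proteins that bind viral RNA or hold back translation. Ifit2 read 5.98, 5.45 and 5.49 in hepatocytes 1 to 3 and 6.66, 5.25 and 6.84 in wild-type organoids 1 to 3. It read 4.23, 4.50 and 4.21 in Yap-off organoids and 2.64, 2.97 and 2.95 in Yap-on organoids. The Yap-off values lay below all hepatocyte and wild-type values, and the Yap-on values lay below all others. Of all genes, 28.9% had Yap-on values below all Yap-off values, 8.32% and 8.58% had Yap-off values below all wild-type and all hepatocyte values, and 11.7% and 21.1% had Yap-on values below them. In the Yap-on libraries Ifit2 was brighter than 12.1% to 23.9% of the genes on its array, and in the Yap-off libraries than 49.0% to 53.8%. Group means were 6.25 ± 0.87 in wild-type organoids, 5.64 ± 0.29 in hepatocytes, 4.31 ± 0.16 in Yap-off and 2.85 ± 0.19 in Yap-on organoids (SD, n = 3 each).

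Between Yap-on and Yap-off organoids, the comparison that asks what Yap activity in culture does after the same period in the animal, Ifit2 fell by 1.46 (SE 0.36, limma adjusted p = 0.0279). This was 2.76-fold lower in Yap-on organoids, with a 95% interval from -2.27 to -0.66. It was the only call among the 8 genes, where 11.5% of all genes were called and 4.36% were called lower. The call is near that background rate and is read as a result on 1 gene only. It was lost when any 1 of the 6 libraries was left out, with adjusted p from 0.0567 to 0.111, while on the 6 arrays alone the SE was 0.14 and the adjusted p 0.00037. Summed macrophage markers were low in both groups, as given above, but single markers differed. Lyz2 was 2.71 lower and Cd68 1.21 higher in Yap-on organoids, neither with a call. The groups differed in other ways, however. Summed hepatocyte markers were 28998 to 35878 in Yap-off and 2901 to 3174 in Yap-on libraries, and biliary markers (8 measured of 10) 794 to 1285 and 9918 to 11599. Xist, the RNA that silences an X chromosome in female cells, read 8.49 to 9.20 in Yap-off and 3.14 to 3.20 in Yap-on libraries, so the animals' sex and the Yap state cannot be told apart. It read 3.14 to 3.30 in wild-type organoids, so that sex and group cannot be told apart between Yap-off and wild-type organoids either, and 8.82, 3.00 and 8.9994 in hepatocytes 1 to 3, which differ among themselves. Of 8 stellate cell markers Reln, set apart after its values were seen, read 7.62 to 8.02 in Yap-off and 3.43 to 3.58 in Yap-on libraries, and the summed intensity of the other 7 was 98.7 to 123.04 and 87.0 to 89.6. The part of these marker genes in the difference was not tested.

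Against wild-type organoids Ifit2 fell in both Yap groups, by 1.94 in Yap-off (SE 0.36, limma adjusted p = 0.0273) and by 3.40 in Yap-on organoids (adjusted p = 0.00029). Of the 8 genes it was the only one called in each comparison, with backgrounds of 2.61% and 5.47% of all genes, and 1.19% and 1.45% called lower. Against the libraries labelled hepatocyte it fell by 2.79 in Yap-on organoids (adjusted p = 0.00112), again the only call, with a background of 6.19% of all genes and 1.93% called lower. The difference of Yap-off organoids from hepatocytes was -1.33 (adjusted p = 0.118) and was not called, although the values did not overlap. Without hepatocyte 2 and wild-type organoid 2 it was called, at -1.42 (adjusted p = 0.00094), beside 8.78% of all genes called lower. That of wild-type organoids from hepatocytes was 0.61 (adjusted p = 0.651), with overlapping values. The Yap-on calls against wild-type organoids and hepatocytes were kept under all 18 alternatives, whereas the Yap-off call against wild-type organoids was lost under 8 of 18. These comparisons share the Yap-on, Yap-off or wild-type libraries, so they are not independent of one another.

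Ifit1, whose protein recognises RNA lacking a host-type cap, read 3.73, 3.42 and 3.43 in hepatocytes, 4.97, 3.40 and 5.86 in wild-type organoids, 3.07, 3.34 and 3.46 in Yap-off and 3.13, 2.94 and 2.76 in Yap-on organoids. Only wild-type organoids 1 and 3 lay above the median gene. Yap-off and Yap-on values overlapped, with a difference of -0.34 (interval -1.42 to 0.73, limma adjusted p = 0.678). The mean of Yap-on organoids was 1.80 below that of wild-type organoids (SE 0.48, adjusted p = 0.0631) and was not called. No values overlapped, as was so for 11.7% of all genes in that direction.

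Ifit3 read 3.11, 5.22 and 2.96 in hepatocytes, 6.76, 2.69 and 7.72 in wild-type organoids, 2.78, 2.73 and 3.31 in Yap-off and 2.82, 2.89 and 2.81 in Yap-on organoids. It spanned 5.03 over the 12 libraries, and the wild-type libraries alone held both the lowest and the highest value. Yap-on and Yap-off organoids overlapped at a dim level (difference -0.09, interval -2.55 to 2.37, limma adjusted p = 0.967). The SD was 0.04 in Yap-on and 2.67 in wild-type organoids (n = 3 each), and the shared estimate of spread, an SE of 1.10, is set by the latter and by the hepatocyte libraries. On the 6 arrays of the Yap groups Ifit3 was not called either (adjusted p = 0.666).

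Rsad2 encodes viperin, a radical-SAM enzyme that makes a chain-terminating nucleotide. It read 3.27, 4.82 and 3.39 in hepatocytes, 6.31, 2.80 and 6.70 in wild-type organoids, 3.02, 3.18 and 3.10 in Yap-off and 3.12, 3.20 and 2.63 in Yap-on organoids. As with Ifit3, only hepatocyte 2 and wild-type organoids 1 and 3 were above the median gene. Yap-on minus Yap-off was -0.12 (interval -2.06 to 1.82, limma adjusted p = 0.947).

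Ifih1, the sensor of long double-stranded RNA, differed in its order from the effectors. It read 4.15, 6.81 and 4.86 in hepatocytes, 7.09, 5.53 and 7.73 in wild-type organoids, 4.49, 4.79 and 5.08 in Yap-off and 5.64, 6.002 and 5.70 in Yap-on organoids. Each Yap-on value lay above each Yap-off value, as was so for 24.6% of all genes. The difference was 0.99 (SE 0.68, limma adjusted p = 0.372) with all 12 arrays, and was not called. With the 6 arrays of the Yap groups alone the SE was 0.18 and Ifih1 was called higher (adjusted p = 0.00632), as were 19.1% of all genes in that fit. Without hepatocyte 2 and wild-type organoid 2 it was called too (adjusted p = 0.0129), where 18.9% of genes were called higher. The interval of the fit on 12 arrays ran from -0.52 to 2.50 and that on 6 arrays from 0.57 to 1.41.

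**Figure D3:**
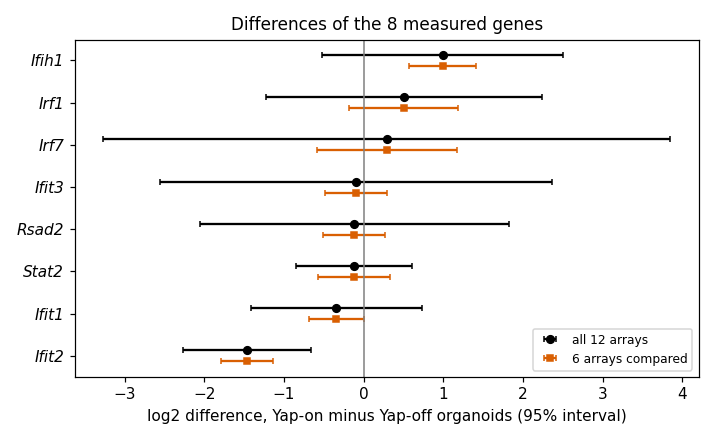
Log2 difference between Yap-on and Yap-off organoids (horizontal axis) with 95% intervals for the 8 genes (vertical axis), from the fit on all 12 arrays (black circles) and on the 6 arrays compared (orange squares). The interval of Ifit2 lies below 0 in both fits, that of Ifih1 lies above 0 only with 6 arrays, and the point estimates are the same in both.

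Among the transcription factors, Stat2, a subunit of the complex that binds the ISRE, varied least. It read 6.02, 6.45 and 6.33 in hepatocytes, 7.50, 6.43 and 7.81 in wild-type organoids, 5.80, 6.44 and 6.21 in Yap-off and 5.88, 6.29 and 5.93 in Yap-on organoids. Its values spanned 2.01 over the 12 libraries, the smallest span of the 8 genes, and it lay above the median gene in every library. Yap-on minus Yap-off was -0.12 (interval -0.85 to 0.61, limma adjusted p = 0.847). Yap-on organoids were 1.21 below wild-type organoids without a call (adjusted p = 0.0644).

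Irf1, which is induced by interferon-gamma and also acts at basal levels in many cells, read 4.92, 7.43 and 5.09 in hepatocytes and 7.80, 5.46 and 7.99 in wild-type organoids. It read 6.23, 5.06 and 5.30 in Yap-off and 5.97, 6.01 and 6.13 in Yap-on organoids, so that Yap-off organoid 1 was above and the other Yap-off libraries were below the Yap-on values. The difference was 0.50 (interval -1.23 to 2.24, limma adjusted p = 0.709).

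Irf7, the factor that amplifies type I interferon production, had the widest span, 5.91. It read 3.64, 9.31 and 3.70 in hepatocytes, 7.74, 3.48 and 8.46 in wild-type organoids, 3.46, 4.54 and 3.40 in Yap-off and 3.89, 4.66 and 3.70 in Yap-on organoids. The library labelled hepatocyte 2 was the highest of the 12, while the other hepatocyte libraries lay below the median gene. The SE of each comparison was 1.59 and no comparison was called, with Yap-on minus Yap-off at 0.29 (interval -3.27 to 3.85, limma adjusted p = 0.929).

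By group mean, wild-type organoids were highest and hepatocytes second for Ifit1, Ifit2, Ifit3, Rsad2, Stat2 and Irf7. For these genes Yap-off came next and Yap-on last, except that Yap-on was above Yap-off for Irf7 and, after renewed quantile normalization, for Ifit3 and Rsad2, all without a call. For Ifih1 and Irf1 the Yap-on mean was second, above hepatocytes. The place of hepatocytes rested on hepatocyte 2 for Irf7, Ifih1 and Irf1, where without it and wild-type organoid 2 the difference of Yap-off organoids from hepatocytes was 0.13, 0.28 and 0.53, none called, against -1.75, -0.49 and -0.28 with all libraries. Ifit2 between Yap-off and Yap-on is the only pair of neighbours in these orders that passed the test. Wild-type organoids minus hepatocytes gave 0 calls among the 8 genes in limma, where 0.0502% of all genes were called, and 2 genes, Ifit1 (1.22) and Stat2 (0.98), at an unadjusted p under 0.05. Yap-off organoids minus hepatocytes also gave 0 calls, with a background of 1.9%, and 1 gene, Ifit2, at an unadjusted p under 0.05.

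The calls against wild-type organoids depended on the library labelled wild-type organoid 2. Without it 7 of the 8 genes were called lower in Yap-off and 5 lower in Yap-on organoids, beside 8.39% and 11.7% of all genes called lower. Without it and hepatocyte 2, all 8 were called lower in both Yap groups than in wild-type organoids 1 and 3, beside 14.1% and 16.4% of all genes called lower. In that setting all 8 were also called higher in wild-type organoids 1 and 3 than in hepatocytes 1 and 3, beside 12.4% of genes called higher. The differences of Yap-off from wild-type organoids then ran from -1.50 for Stat2 to -4.30 for Ifit3 and Irf7. Against hepatocytes 1 and 3, Yap-on organoids were then called lower for Ifit2 (-2.89, limma adjusted p = 4e-06) and higher for Ifih1 (1.27, adjusted p = 0.00841) and Irf1 (1.04, adjusted p = 0.03), beside 9.17% and 12.4% of all genes called lower and higher. The remaining wild-type libraries are those with high macrophage, endothelial and lymphocyte markers, and the remaining hepatocyte libraries those without them. With wild-type organoid 2 set directly beside the Yap-on libraries, Rsad2 (2.80 in it) lay within the Yap-on range. Ifit2 (5.25), Ifit1 (3.40) and Stat2 (6.43) lay above it, and Ifit3 (2.69), Irf7 (3.48), Irf1 (5.46) and Ifih1 (5.53) below it. The gap to the nearest Yap-on library was widest for Ifit2.

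Across the 12 arrays Ifit1, Ifit3, Rsad2 and Stat2 had a Pearson's r of 0.91 to 0.99 with one another, highest between Ifit3 and Rsad2. With these genes Ifih1 had an r of 0.66 to 0.85, Irf7 of 0.66 to 0.88 and Irf1 of 0.65 to 0.88. A link between r and the promoter cores was not tested. Ifit2 had its lowest r with Ifih1 (0.34) and Irf1 (0.39). These describe 12 arrays that share the library differences above. Over all genes, the most alike in pattern were Klrk1 and Clec9a for Ifit3 (r = 0.99 each), Gm4952 and Ccr2 for Rsad2 (0.99 each), Akna and Usp12 for Irf7 (0.99 and 0.98), and Rnf213 and Trim12a for Ifih1 (0.99 and 0.96). For Ifit1 they were Igkv8-30 and Adh4 (0.97 each), for Irf1 Git2 and Arid1a (0.97 each), for Stat2 St8sia4 and Txk (0.95 each), and for Ifit2 Acsf2 and Lipa (0.94 each). Some of these, such as Klrk1, Clec9a and Ccr2, are known from lymphocytes, dendritic cells or monocytes, but not all are. The part of such cells in these patterns was not tested.

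The rest of the pathway was followed with 112 further genes in 7 lists, of which 97 were measured. In Yap-on against Yap-off organoids 6 of the 97 rose and 3 fell, against a background of 7.09% of all genes called higher and 4.36% lower. The median difference of the 97 was -0.13, beside -0.08 over all genes and -0.11 over the 8 genes. On the 6 arrays alone 19 were called higher and 13 lower, beside 19.1% and 12% of all genes.

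Of 9 interferon ligands measured of 11, 0 were called in limma and 0 had an unadjusted p under 0.05, and the median difference was -0.19. Ifnb1, the type I interferon that many cells release first, read 2.58 to 3.01 in the 12 libraries, and Ifng read 4.56 and 4.32 in wild-type organoids 1 and 3 and 3.13 to 3.66 elsewhere. The largest differences in the list, both uncalled, were -0.53 for Ifnl2 and -0.20 for Ifne.

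Among 9 receptor chains and kinases Jak2, the kinase of the interferon-gamma receptor, rose by 0.63 in Yap-on organoids (SE 0.14, limma adjusted p = 0.0159). It read 5.70, 5.70 and 5.74 in Yap-off and 6.48, 6.27 and 6.29 in Yap-on organoids, with no overlap, as was so for 24.6% of all genes in that direction. The call was lost under 7 of 18 alternatives. Ifnar2, a chain of the type I interferon receptor, was 1.26 lower in Yap-on organoids without a call (adjusted p = 0.0526). Tyk2 (0.68) and Il10rb (0.73), a shared chain of the interferon-lambda receptor, were not called. Of the other STAT and IRF factors, 7 measured of 9, 0 were called in limma and 1 had an unadjusted p under 0.05, with Irf9 at 0.85, Irf5 at -0.69, Stat3 at -0.61 and Irf8 at -0.31.

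Of 15 nucleic acid sensors and adaptors measured of 17, 2 were called, both higher, against 11.5% of all genes called and 7.09% called higher. Tlr3, the endosomal sensor of double-stranded RNA, read 4.66, 5.04 and 4.93 in Yap-off and 8.43, 8.24 and 8.50 in Yap-on organoids. All Yap-on values lay above every library of the other groups. Above the Yap-off libraries alone this was so for 24.6% of all genes, and the share for all the other groups was not counted. It rose by 3.52 (SE 0.46, limma adjusted p = 0.00096), and the call was kept under all 18 alternatives. It also rose against wild-type organoids (2.75, adjusted p = 0.00644) and hepatocytes (3.62, adjusted p = 0.00103). Aim2, a sensor of cytosolic DNA, read 4.63, 4.02 and 3.88 in Yap-off and 8.21, 7.98 and 7.74 in Yap-on organoids. It rose by 3.80 (SE 0.90, adjusted p = 0.0234), a call lost under 7 of 18 alternatives, 5 of them with 1 library left out. Ddx58, the sensor RIG-I, was 0.57 higher (adjusted p = 0.482) and the kinase Tbk1 0.60 higher (adjusted p = 0.192), neither with a call, and the median of the list was -0.04.

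In the list of inhibitors of the response 1 of 10 was called, near the background of 11.5%. That gene, Isg20, encodes an exonuclease that degrades viral RNA and so does not do what the list's name says. It read 4.61, 5.82 and 5.46 in Yap-off and 8.70, 8.80 and 8.38 in Yap-on organoids, and rose by 3.33 (SE 0.46, limma adjusted p = 0.00132), with the call kept under all 18 alternatives. Isg20 rose in Yap-on organoids against wild-type organoids (2.45) and hepatocytes (2.68) as well. Usp18, which removes ISG15 and blocks the type I receptor, differed by -0.79, and the feedback inhibitor Socs1 by -0.64, both uncalled, whereas the RNA editing enzyme Adar was 0.82 higher without a call.

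Of 35 other antiviral genes measured of 38, 2 rose and 2 fell, again near 11.5%. Ifitm3, a membrane protein that blocks viral entry, read 10.42, 10.78 and 10.98 in Yap-off and 5.45, 4.78 and 3.40 in Yap-on organoids. It fell by 6.19 (SE 1.35, limma adjusted p = 0.016), with the call lost under 5 of 18 alternatives, and it was 8.23, 11.98 and 8.60 in hepatocytes 1 to 3. Eif2ak2, the kinase PKR that halts translation on binding double-stranded RNA, rose by 1.34 (SE 0.31, adjusted p = 0.0226). Lgals3bp, a secreted glycoprotein, rose by 1.93 (SE 0.50, adjusted p = 0.0356). Their calls were lost under 8 and 9 of 18 alternatives, for Lgals3bp with any 1 library left out. Ifi44l fell by 0.49 (adjusted p = 0.0314) between values of 2.42 and 3.08, all below the median gene, and lost its call under 10 of 17. Oas1a, a synthetase that activates RNase L, was 1.76 higher (adjusted p = 0.21) and Pml, of nuclear bodies, 1.34 higher (adjusted p = 0.0981), both without a call. Neither overlapped between the groups, as was so for 24.6% of all genes in that direction.

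Of 12 interferon-gamma-induced genes measured of 18, Iigp1, a GTPase that attacks the vacuoles of intracellular parasites, was the 1 called, near 11.5% as well. It read 5.07, 6.59 and 5.12 in hepatocytes, 7.60, 4.17 and 8.21 in wild-type organoids, 8.91, 8.87 and 8.9975 in Yap-off and 2.97, 3.51 and 3.61 in Yap-on organoids. The Yap-off libraries were the highest and the Yap-on libraries the lowest of all 12. Yap-on values lay below all Yap-off values for 28.9% of all genes, and the share with the whole order was not counted. It fell by 5.56 (SE 0.88, limma adjusted p = 0.00302) in Yap-on organoids, with the call kept under all 18 alternatives. The median of the list was -0.38. The chemokine Cxcl10 (-0.91), Nlrc5 (-0.78), which drives MHC class I genes, and the GTPase Irgm1 (-0.73) were not called. As for Ifit2, the hepatocyte and biliary markers and the sex-linked genes moved with these Yap differences, and their part was not tested.

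**Figure D4:**
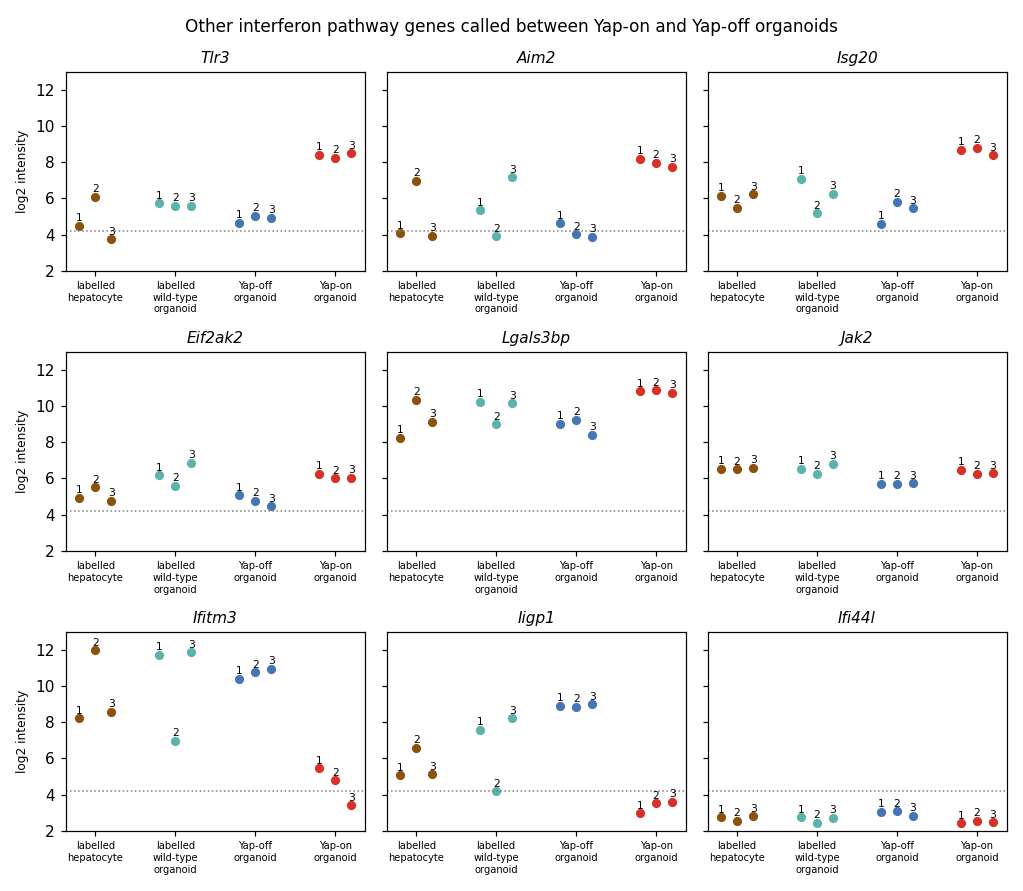
Log2 intensity (vertical axis) in each library, by group (horizontal axis), of the 9 other pathway genes called between Yap-on and Yap-off organoids, with replicate numbers beside the points and a dotted line at the median gene averaged over the arrays. Tlr3, Aim2, Isg20 and Lgals3bp are highest in the Yap-on libraries, Ifitm3 and Iigp1 lowest there, and Ifi44l lies below the dotted line throughout. Of all genes, 24.6% had Yap-on values above and 28.9% below all Yap-off values. The shares against all the other libraries were not counted.

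In the other comparisons the same 97 genes gave at most 5 calls each, where 2.61% and 5.47% of all genes were called in Yap-off and Yap-on against wild-type organoids and 1.9% and 6.19% against hepatocytes. All 12 of these calls were kept without hepatocyte 2 and wild-type organoid 2, where 6449, 8167, 2792 and 4300 of all genes were called in the same order. On the 6 arrays compared, the 97 genes gave 0 calls in Yap-off and 1 in Yap-on against wild-type organoids, beside 61 and 699 of all genes. Against hepatocytes 1 was then called higher and 1 lower in Yap-off, and 3 higher and 5 lower in Yap-on organoids, beside 143 and 1759 of all genes. In Yap-off against wild-type organoids 3 fell, namely Ddx58 (-2.52), Eif2ak2 (-1.44) and Jak2 (-0.82). In Yap-on against wild-type organoids 2 rose, Tlr3 and Isg20, and 3 fell, namely Ifitm3 (-5.66), Ifnar2 (-1.66) and Bst2 (-1.34), which encodes the surface protein tetherin and was named after its values were seen. Against hepatocytes Jak2 fell in Yap-off organoids (-0.83), and in Yap-on organoids Tlr3 and Isg20 rose and Ifnar2 fell (-1.65). Ifnar2 read 7.83, 7.58 and 7.85 in Yap-on organoids and 8.71 to 10.15 in the other 9 libraries, with no overlap. Of all genes, 28.9%, 11.7% and 21.1% had Yap-on values below all Yap-off, all wild-type and all hepatocyte values in turn. Wild-type organoids against hepatocytes gave 0 calls in limma and 6 genes at an unadjusted p under 0.05.

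Yap1, the gene manipulated in the study, read 6.88 to 7.35 in Yap-off and 7.28 to 7.45 in Yap-on organoids. The difference was 0.23 (SE 0.56, limma adjusted p = 0.825) and was not called. Whether the array's probes read the induced Yap was not settled by the labels.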

How the data were processed

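RNA was extracted with Qiagen microRNEasy, amplified and biotin-labelled with Nugen Pico WT and hybridised to Affymetrix MoGene ST 1.0 arrays, per the labels' protocols. The authors deposited intensities on a linear scale made with RMA, per the submitters' processing notes, with no version given, and log2 was taken here. RMA's background step and quantile normalization compress dim signals and force arrays to 1 distribution, which can understate changes of dim genes. No genome build is given in the sources used.

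Of 34760 rows, 21640 named 1 gene, 1321 several and 11799 none, which left 19937 genes. RefSeq names matched 21553 rows by Entrez ID and changed 0 symbols. For 6 comparisons, limma 3.58.1 (lmFit and eBayes in R 4.3.3) was run on all 12 arrays with 1 mean for each group, which left 8 residual degrees of freedom beside 1.76 prior ones. P-values were adjusted by Benjamini-Hochberg over 19937 genes and called under 0.05. With 3 arrays against 3 a permutation test cannot go below p = 0.1, and was left out. Precision is limited by the number of arrays. The fit was tested on simulated data.

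The 9 genes and the lists were chosen with earlier results of these data known. Named were these genes, Yap1, from each list up to 4 genes with the largest Yap-on minus Yap-off difference and every called gene, and for each of the 8 measured genes the 2 with the highest Pearson r. The array weights, normalization, row choice, filters, thresholds and left-out libraries tried as alternatives are in the closing section. Figures were drawn with matplotlib 3.10.9.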

Additional observations from a re-analysis of the deposited data

How the results depend on the processing

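Single-gene calls were kept in 170 and lost in 63 of the repeats of 13 called results. Of 45 uncalled results 716 repeats stayed uncalled in the same direction, 86 became calls and 7 changed sign. These 7 were all differences of Yap-on minus Yap-off organoids. Renewed quantile normalization gave 0.066 for Ifit3, 0.048 for Rsad2 and -0.019 for Yap1. With 1 library left out, Ifit3 ranged from -0.20 to 0.090 (highest without Yap-off organoid 3), Rsad2 from -0.23 to 0.057 (highest without Yap-on organoid 3), Irf7 from -0.00059 (without Yap-on organoid 2) to 0.66 and Stat2 from -0.29 to 0.025 (highest without Yap-off organoid 2). The cause was not tested.

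The number of the 8 genes called between Yap-on and Yap-off organoids, 1 in the main setting, was 0 with renewed quantile normalization, at an adjusted p under 0.01 and with 1 library left out (0 to 0), and 2 on the 6 arrays alone, with array weights and without hepatocyte 2 and wild-type organoid 2. For Yap-off against wild-type organoids (1) it was 0 on 6 arrays and under 0.01, 8 with array weights and without those libraries, and 0 to 7 with 1 library left out. For Yap-on against wild-type organoids (1) it was 2 without the 30% of genes of lowest mean, 8 with array weights and without those libraries, and 1 to 5 with 1 left out. For wild-type organoids against hepatocytes (0) it was 8, 8 and 0 to 5 in the last 3 settings, for Yap-off organoids against hepatocytes (0) 1, 1 and 0 to 0, and for Yap-on organoids against hepatocytes (1) 3, 3 and 1 to 1. The values of 7, 5 and 5 came without wild-type organoid 2. Same-numbered Yap-off and Yap-on libraries deviated from their group means with correlations of 0.0715, 0.0275 and -0.0638. Differently numbered ones gave -0.105 to 0.0975. No pairing by number was seen, but with 3 libraries a group a weak one could be missed. With a replicate block the number called was 0 between Yap-on and Yap-off organoids (Ifit2 adjusted p = 0.0535) and 0 between Yap-off and wild-type organoids, and as in the main setting elsewhere.

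Over all genes, 2283, 520, 1091, 10, 378 and 1234 were called in the 6 comparisons (Yap-on minus Yap-off, Yap-off and Yap-on minus wild-type, then wild-type, Yap-off and Yap-on minus hepatocytes). Array weights gave 7688, 5199, 8293, 5431, 2426 and 6334, the fit without those libraries 5914, 6449, 8167, 6117, 2792 and 4300, and an adjusted p under 0.01 gave 1027, 69, 544, 0, 84 and 666. On 6 arrays 6212, 61, 699, 0 and 143 were called in the first 5. A replicate block gave 170, 0 and 167, and a trended robust fit 324, 2 and 233, for Yap-off minus wild-type, wild-type minus hepatocytes and Yap-off minus hepatocytes. Renewed quantile normalization gave 5 for wild-type minus hepatocytes. With 1 library left out the ranges were 1171 to 2169, 101 to 3864, 575 to 6022, 0 to 1604, 113 to 837 and 732 to 1935. Neither renewed quantile normalization nor centring each array on its median moved the median difference of all genes by over 0.1. Dim signals limit Ifit1, Ifit3, Rsad2 and, in most libraries, Irf7 in the Yap organoids, and also Ifit2 in the Yap-on organoids. The 3 arrays a group limit every comparison.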
